A study of Mus musculus with 3 samples.

Results

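Matrix metalloproteinases (MMPs), ADAMTS aggrecanases and the tissue inhibitors that block them (TIMPs) were followed through 9 genes, Mmp2, Mmp9, Mmp13, Mmp14, Adamts1, Adamts5, Timp1, Timp2 and Timp3, out of 32287 features counted. The genes were picked by name, with earlier results of these data known, and the cell classes they are compared across were set by the UMI counts of other genes. Of 9556 barcodes with at least 1000 UMIs, 300 to 6000 genes and a mitochondrial share under 10%, 6775 met exactly 1 of 7 class rules and made up the classes. A further 343 met more than 1 rule and 2438 met none.

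The cells came from femurs and tibias of untreated Il15-IRES-EGFP reporter mice, in which cells that transcribe Il15 also make GFP. Bone marrow (BM) and crushed bone of 7 male and female mice, 8 to 12 weeks old, were digested with collagenase, DNase and dispase and sorted as Aqua Zombie- CD45- Ter119- cells that were either CD31- Il15-GFP+ (mesenchymal stromal cells, MSCs) or CD31+ Il15-GFP+ (endothelial cells, ECs). They were made into 3 droplet libraries, taken as replicates, with 17346289, 57235695 and 60514950 unique molecular identifiers (UMIs, counted molecules) in all and 995, 3225 and 5336 cells within the limits. The cells were collected on 2 experiment days and mice were pooled for each library. The sources do not say which mice or which day went into which library. A p-value here therefore sets a class difference against its spread from library to library, once shifts common to a whole library were taken out.

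MMPs are zinc-dependent enzymes, secreted as inactive precursors or anchored in the membrane, that cleave collagens and other matrix proteins, and ADAMTS aggrecanases cut the large proteoglycans aggrecan and versican. TIMPs bind the active site of these enzymes, and Timp3 in particular stays in the matrix and also blocks aggrecanases. In bone, these enzymes remove cartilage and unmineralised matrix during growth and remodelling, and in marrow they are known for matrix turnover around vessels and for release of cells and growth factors.

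Fat3+ cells (at least 2 Fat3 UMIs) numbered 7, 44 and 652 in replicates 1, 2 and 3. Lepr+ cells (at least 2 Lepr and at most 1 Fat3 UMIs) numbered 629, 63 and 2095. ECs were taken as Stab2+ (at least 5 Stab2 UMIs; 128, 554 and 1093 cells) and as Cdh5+ (at least 1 Cdh5 and at most 1 Stab2 UMIs; 70, 248 and 434 cells). The libraries thus differ in make-up, with Lepr+ cells at 63.2% of replicate 1 and 1.95% of replicate 2. Smaller classes were fibroblast-rule cells (at least 5 UMIs over Clec3b, Igfbp6, Dpt and Mfap5; 18, 12 and 85 cells) and Col9+ cells (at least 10 UMIs over Col9a1, Col9a2 and Col9a3; 17, 0 and 168 cells). Cells with at least 300 UMIs over S100a8 and S100a9, called S100a8/a9-high, numbered 14, 419 and 25. Replicates 1 and 2 shared 1 cell barcode, replicates 1 and 3 shared 2, and replicates 2 and 3 shared 7. Scrublet called 2, 16 and 40 cells as doublets (0.201, 0.496 and 0.750%), including 9 of the 710 cells of replicate 3 that met the Fat3 rule, and doublets were kept.

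The classes carried the markers that their rules imply, with exceptions in replicate 1. Fat3+ cells had UMIs of 10 of 10 osteoblast genes in replicates 2 and 3, where these genes summed to 88870 and 104500 CPM (1000 times the UMIs per 1000 UMIs of a class and library) and Col1a1 was the most abundant. Lepr+ cells also had UMIs of all 10, at sums of 8197, 8070.0 and 10970 CPM, led by Ibsp. In Fat3+ cells of replicate 1 the sum was 11600 CPM with 9 of 10 genes, Dmp1 at 0 and Cxcl12 at 6497 CPM, and its 7 cells were too few for a test. Lepr+ cells had Cxcl12 at 18230, 7579 and 16890 CPM, and Col9+ cells had Col2a1 at 33670 CPM in replicate 1 and 48080 in replicate 3. The 8 sinusoidal genes summed to 6616, 6784 and 7071 CPM in Stab2+ ECs, led by Gpm6a, and to 4483, 3151 and 4418 CPM in Cdh5+ ECs, which also had all 8. The 8 genes of other ECs summed to 6232, 4191 and 5371 CPM in Cdh5+ ECs, led by Ly6a, and to 3051, 2768 and 2726 CPM in Stab2+ ECs. Fibroblast genes summed to 30440, 38300 and 22120 CPM in fibroblast-rule cells. S100a8/a9-high cells carried 10, 12 and 9 of 12 neutrophil genes and Ptprc, the CD45 gene, at 651, 472 and 1229 CPM, although the sort took CD45- cells. Replicate 2 also held red-cell RNA, with Hba-a1 at 14950 CPM in Cdh5+ ECs and 27280 CPM among barcodes of 10 to 100 UMIs, which hold free RNA rather than cells. The part of these differences in the levels below was not tested.

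**Figure D1:**
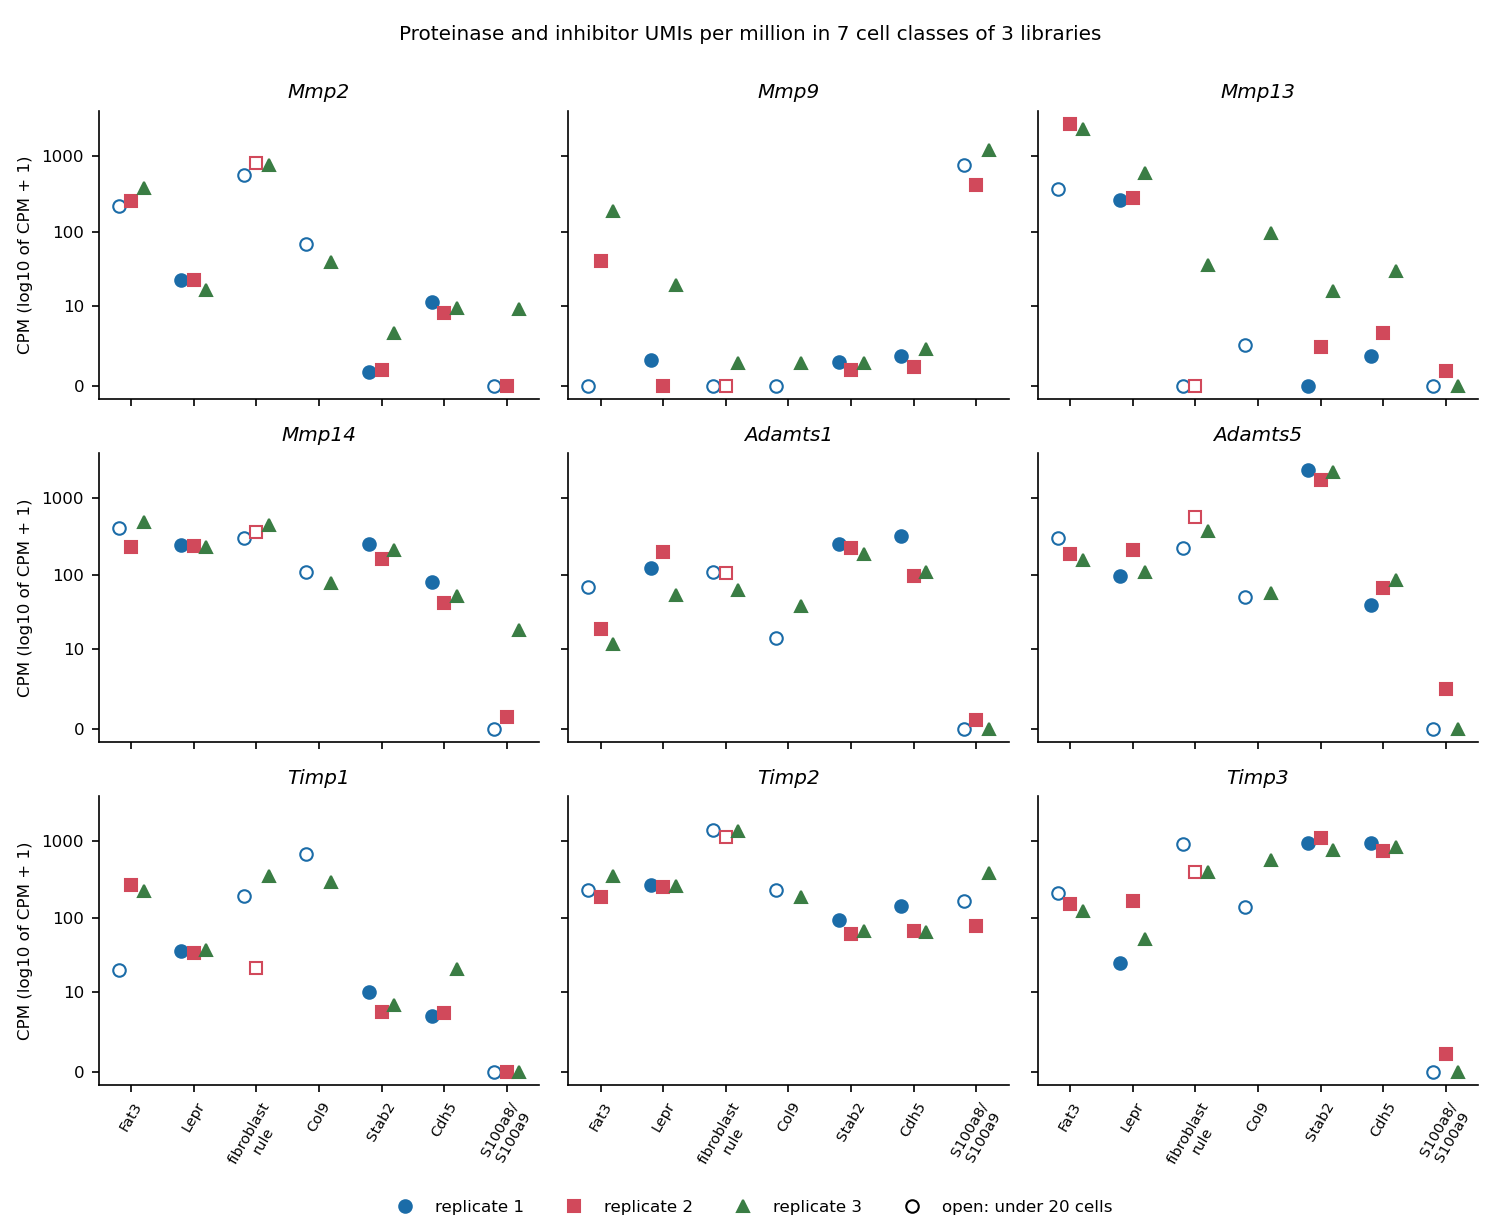
Level of each gene (log10 of CPM + 1) in the 7 cell classes, 1 point per library, with open points for sums of under 20 cells. Adamts5 lies between 1745 and 2354 CPM in Stab2+ ECs, Mmp13 at 2596 and 2186 CPM in the Fat3+ cells of replicates 2 and 3, and Mmp9 between 410 and 1165 CPM in S100a8/a9-high cells.

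Mmp2 encodes gelatinase A, which degrades denatured collagen and basement membrane collagen. Its level was 253 CPM in Fat3+ cells of replicate 2 and 373 CPM in those of replicate 3, with 219 CPM in the 7 cells of replicate 1. Lepr+ cells had 23.1, 23.3 and 16.7 CPM in replicates 1, 2 and 3, and fibroblast-rule cells had 559, 793 and 751. Every library of Fat3+ cells thus stood above every library of Lepr+ cells, and fibroblast-rule cells above both. Among ECs, Mmp2 was lower in Stab2+ ECs, at 0.530, 0.614 and 3.93 CPM, against 11.6, 7.90 and 9.48 CPM in Cdh5+ ECs. Barcodes of 10 to 100 UMIs held 41.9, 14.2 and 127 CPM of Mmp2, above both EC classes in each library. The part of free RNA in this difference between ECs was not tested. The order ran from fibroblast-rule through Fat3+, Col9+, Lepr+ and Cdh5+ cells to S100a8/a9-high and Stab2+ cells, whose places cannot be told apart. S100a8/a9-high cells overlapped with each EC class, and the EC classes did not overlap. A Mmp2 UMI was found in 71.3% of Fat3+ cells of replicate 3 (Wilson 95% interval 67.7 to 74.7, median depth 9966 UMIs) and in 8.02% of Lepr+ cells (6.93 to 9.26, median depth 7762). In S100a8/a9-high cells of replicate 2, a hematopoietic class of 419 cells with a median depth of 12609 UMIs, 0 cells had one (0 to 0.908). In replicate 3, where barcodes of 10 to 100 UMIs held 127 CPM of Mmp2 against 14.2 CPM in replicate 2, the share was 1 of 25 S100a8/a9-high cells (0.710 to 19.5%), 3.29% of Stab2+ ECs (2.39 to 4.53) and 3.92% of Cdh5+ ECs (2.46 to 6.18). Shares in the EC classes thus cannot be told apart in replicate 3. These intervals cover counting error only.

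Mmp9 encodes gelatinase B, which neutrophils store in granules and osteoclasts secrete. By level, S100a8/a9-high cells came first, at 749, 410 and 1165 CPM, followed by Fat3+ cells, at 41.9 CPM in replicate 2 and 188 CPM in replicate 3. Lepr+ cells had 1.21, 0 and 19.8 CPM and ECs 0.614 to 2.00 CPM, and Lepr+ cells overlapped with both EC classes. In Lepr+ cells of replicate 3, 3 of 2095 cells held 265 of 326 Mmp9 UMIs (81.3%). Fat3+ cells of both libraries stood above every library of Lepr+ cells, while 0 UMIs in the 7 Fat3+ cells of replicate 1 allow up to 29.8 CPM.

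Mmp13 encodes collagenase 3, which cleaves fibrillar collagens and is known in bone from osteoblasts and late chondrocytes. Its RefSeq promoter, 250 bases before to 50 after the start, lies at chr9:7272264-7272563 on the plus strand of GRCm38.p6. It is printed because, of the 9 genes, Mmp13 differed most between Lepr+ cells and each EC class. A second reason is that Mmp13 alone among the 6 of 9 genes with an entry held either motif searched.

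Mmp13 promoter: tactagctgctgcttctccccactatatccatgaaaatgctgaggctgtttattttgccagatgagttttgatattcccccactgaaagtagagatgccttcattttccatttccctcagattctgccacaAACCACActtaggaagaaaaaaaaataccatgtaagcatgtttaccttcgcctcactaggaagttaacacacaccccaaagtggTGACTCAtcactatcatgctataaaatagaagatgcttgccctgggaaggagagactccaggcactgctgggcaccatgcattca

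The capitals mark AACCACA, a Runx motif whose first base lies at -119 from the start, and TGACTCA at -35, the reverse complement of the AP-1 motif TGAGTCA. Both strands were searched and the matches do not overlap. Of 32851 promoters, 5.20% held the AP-1 letters, 5.27% the Runx letters and 0.301% both. A match describes the letters and not a bound site. Runx2 itself was at 2501 and 3059 CPM in Fat3+ cells of replicates 2 and 3 and at 1974, 1894 and 2459 CPM in Lepr+ cells.

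Mmp13 stood at 2596 CPM in Fat3+ cells of replicate 2 and 2186 CPM in those of replicate 3. The 7 cells of replicate 1 had 368 CPM. Lepr+ cells had 267, 283 and 594 CPM, and in each library Fat3+ cells were above Lepr+ cells, although the replicate 1 value lay within the range of Lepr+ cells over libraries. ECs were far lower, with 0, 2.25 and 16.3 CPM in Stab2+ and 1.45, 3.95 and 30.4 CPM in Cdh5+ ECs. Both EC classes were highest in replicate 3, where barcodes of 10 to 100 UMIs also held the most Mmp13, at 691 CPM against 167 and 209 in replicates 1 and 2. Fibroblast-rule cells had 0, 0 and 36.3 CPM and Col9+ cells 2.40 CPM in replicate 1 and 97.0 in replicate 3, so both overlapped with ECs. Fat3+ and Lepr+ cells thus came first. S100a8/a9-high cells had 0.580 CPM in replicate 2, while their 0 UMIs in replicates 1 and 3 allow up to 12.8 and 27.3 CPM, within the range of ECs.

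Shares of cells with Mmp13 differed less between the stromal classes than levels did. A UMI was present in 54.9% of Fat3+ cells of replicate 3 (51.1 to 58.7) and 51.0% of Lepr+ cells (48.9 to 53.2). After thinning each cell to 2000 UMIs, which leaves out the 10 and 83 shallower cells, the mean chance of detection was 40.9 and 32.2%. It was 41.5 and 26.6% in replicate 2. As background, 7.59% of Stab2+ ECs of replicate 3 (6.17 to 9.32, median depth 8134) had a Mmp13 UMI, 9.45% of Cdh5+ ECs (7.04 to 12.6, median depth 3930.5) and 0.955% of S100a8/a9-high cells of replicate 2. Shares in Fat3+ and Lepr+ cells were thus above those in ECs and S100a8/a9-high cells.

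Mmp14 encodes a membrane-bound MMP that cleaves collagen at the cell surface and activates the precursor of Mmp2. It was the most evenly spread of the MMPs. Lepr+ cells had 244, 238 and 236 CPM, Stab2+ ECs 256, 160 and 215 CPM, and Fat3+ cells 230 and 493 CPM in replicates 2 and 3 (417 CPM in the 7 cells of replicate 1). These 3 classes overlapped, and fibroblast-rule cells, at 306, 360 and 443 CPM, overlapped with Fat3+ cells. Cdh5+ ECs, at 81.1, 42.7 and 53.4 CPM, were below Stab2+ ECs in each library. A Mmp14 UMI was found in 72.7% of Stab2+ ECs of replicate 3 (70.02 to 75.29) and 10.8% of Cdh5+ ECs (8.24 to 14.1), and in 33.2 and 5.45% after thinning. In S100a8/a9-high cells the share was 0.716% in replicate 2 and 8.00% (2 of 25 cells, 2.22 to 25.0) in replicate 3, where barcodes of 10 to 100 UMIs held 206 CPM of Mmp14 against 55.2 CPM in replicate 2. The thinned share of S100a8/a9-high cells in replicate 3 was 5.775%. Neither the unthinned nor the thinned share of Cdh5+ ECs in replicate 3 can be told apart from that background.

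Adamts5 encodes an aggrecanase that also cuts versican. Stab2+ ECs held 2354, 1745 and 2239 CPM. Fibroblast-rule cells had 227, 571 and 376 CPM. Lepr+ cells had 97.3, 215 and 110 CPM, Fat3+ cells 187 and 155 CPM in replicates 2 and 3 (308 CPM in the 7 cells of replicate 1), and Cdh5+ ECs 40.6, 67.9 and 85.3 CPM. Stab2+ ECs were above all other classes in each library, Fat3+ and Lepr+ cells overlapped, and so did Cdh5+ and Col9+ cells. A UMI was present in 94.6% of Stab2+ ECs of replicate 3 (93.1 to 95.8) and in 17.3% of Cdh5+ ECs (14.0 to 21.1). Thinned shares were 91.4, 82.5 and 87.0% in Stab2+ and 7.17, 6.62 and 9.65% in Cdh5+ ECs, and 2.63% of S100a8/a9-high cells of replicate 2 had a UMI unthinned.

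Adamts1 encodes an aggrecanase of the same family, and its gene lies next to that of Adamts5 on chromosome 16, 53059 bases away with 1 gene between them. The neighbours differed in pattern. Adamts1 was at 257, 226 and 186 CPM in Stab2+ ECs, 319, 96.4 and 111 CPM in Cdh5+ ECs and 122, 197 and 54.3 CPM in Lepr+ cells, and the 3 classes overlapped. Fat3+ cells of replicates 2 and 3 were below all of these, at 19.2 and 11.9 CPM. The 7 Fat3+ cells of replicate 1 had 69.5 CPM, from 7 UMIs, above Lepr+ cells of replicate 3. Fos, a gene induced within minutes of stimulation, also differed between libraries and was picked after its values were seen. It was at 470, 1789 and 47.1 CPM in Lepr+ cells and at 1462, 382 and 166 CPM in Cdh5+ ECs. In both classes the library highest in Adamts1 was the one highest in Fos. In Stab2+ ECs, with Fos at 876, 908 and 464 CPM, it was not. Among Fat3+ cells Fos was at 494 and 59.8 CPM in replicates 2 and 3, and its part in the Adamts1 levels was not tested.

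Timp1 encodes a secreted inhibitor of most soluble MMPs. It was at 269 and 223 CPM in Fat3+ cells of replicates 2 and 3, but at 19.9 CPM in the 7 cells of replicate 1, which had 2 Timp1 UMIs. Lepr+ cells were close to each other at 36.4, 34.0 and 37.0 CPM. Col9+ cells had 679.5 CPM in replicate 1 and 298 CPM in replicate 3, and fibroblast-rule cells 192, 21.2 and 350 CPM. Fat3+ cells of both libraries large enough for a test exceeded Lepr+ cells, while fibroblast-rule cells spread from below Lepr+ cells to above Fat3+ cells. ECs were at 4.35 to 21.0 CPM, and S100a8/a9-high cells had 0 UMIs in 458 cells. In replicate 3, a Timp1 UMI was found in 40.3% of Fat3+ cells (36.6 to 44.1) and in 75.6% of Col9+ cells (68.6 to 81.5). Col9+ cells had a median depth of 23803 UMIs, and thinned shares were 17.6 and 30.3%. The Timp1 gene overlaps Syn1 on the opposite strand.

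Timp2 encodes an inhibitor that also takes part in the activation of the Mmp2 precursor by Mmp14. Fibroblast-rule cells had 1418, 1132 and 1380 CPM and stood above all other classes. Lepr+ cells had 272, 250 and 259 CPM, and Fat3+ cells had 187 and 354 CPM in replicates 2 and 3 (228 CPM in the 7 cells of replicate 1). S100a8/a9-high cells had 166, 77.9 and 382 CPM, so Timp2 was not confined to stromal cells and the last 3 classes overlapped. Stab2+ ECs, at 92.7, 60.8 and 66.3 CPM, and Cdh5+ ECs, at 145, 67.1 and 64.9 CPM, were below Lepr+ and Fat3+ cells and overlapped each other. The gene Cep295nl overlaps Timp2 on the same strand, so some UMIs of this pair may be assigned to either.

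Timp3 encodes the matrix-bound inhibitor, which also blocks ADAMTS aggrecanases. It was at 951, 1100.0 and 764 CPM in Stab2+ ECs and at 953, 741 and 839 CPM in Cdh5+ ECs. The EC classes overlapped and stood above Lepr+ cells, at 25.3, 166 and 53.0 CPM, and Fat3+ cells, at 152 and 124 CPM in replicates 2 and 3 (209 CPM in the 7 cells of replicate 1). Fat3+ and Lepr+ cells overlapped, and Lepr+ cells of replicate 2 were the highest of their class. Fibroblast-rule cells had 920, 402 and 392 CPM and Col9+ cells 139 and 577 CPM. A Timp3 UMI was found in 94.7% of Stab2+ ECs of replicate 3 (93.2 to 95.9), 84.6% of Cdh5+ ECs (80.9 to 87.7) and 21.1% of Lepr+ cells (19.4 to 22.8), and in 0.955% of S100a8/a9-high cells of replicate 2. Thinned, the replicate 3 shares were 70.6, 72.0 and 8.11%. The Timp3 gene overlaps Syn3 on the opposite strand.

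Differences between classes were tested with edgeR's quasi-likelihood test on UMIs summed per library and class, over the 15 sums of at least 20 cells, with library as block and p-values adjusted by Benjamini-Hochberg over 15067 genes. All 9 genes passed the filter on low counts. Fat3+ cells entered with 2 libraries and the other 3 classes compared with 3. The comparisons ask in which stromal or endothelial class the cells transcribe the enzymes and where they transcribe the inhibitors. Those against Lepr+ cells share that reference, so they are given side by side and not correlated.

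**Figure D2:**
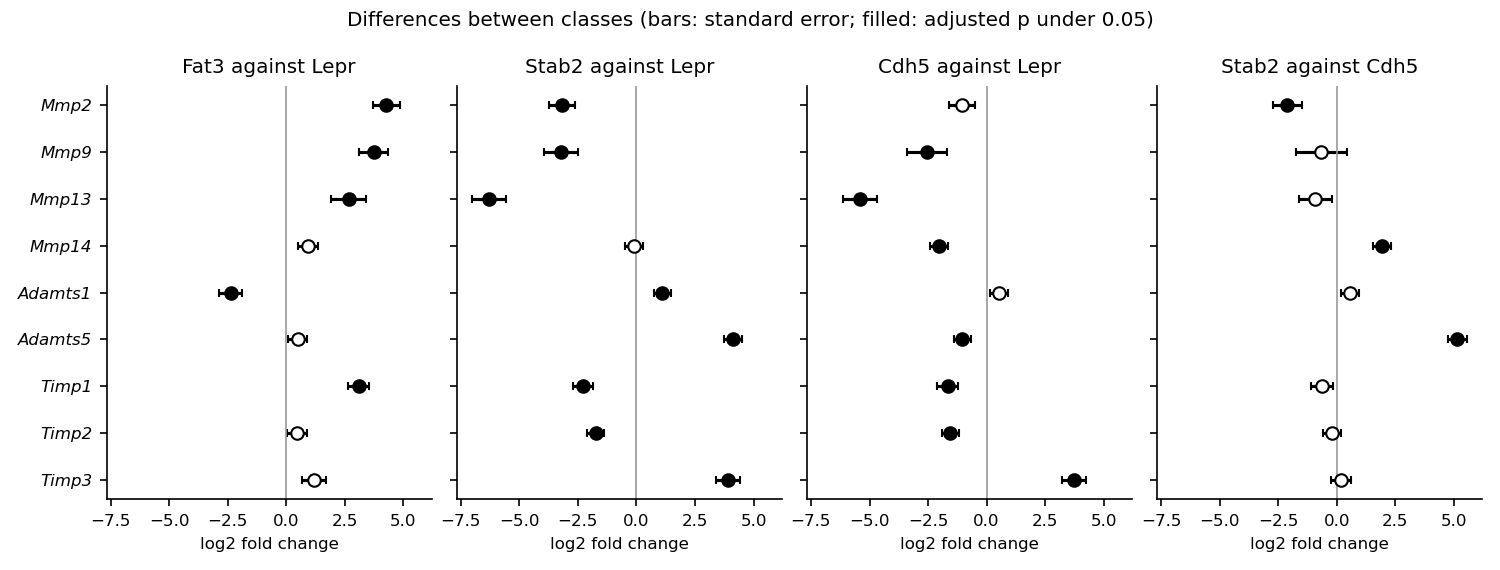
Log2 fold changes of the 9 genes with standard errors in 4 comparisons of classes, filled where the edgeR adjusted p was under 0.05. Mmp2, Mmp9, Mmp13 and Timp1 were higher in Fat3+ than in Lepr+ cells, while Adamts5 (5.15) and Mmp14 (1.93) were higher in Stab2+ than in Cdh5+ ECs.

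In Fat3+ against Lepr+ cells, 4 of 9 genes were called higher, where 5.71% of all genes tested were, and 1 was called lower, where 5.42% were. The log2 fold changes were 4.27 for Mmp2 (SE 0.57, edgeR adjusted p 0.000238), 3.73 for Mmp9 (SE 0.61, adjusted p 0.00104), 3.10 for Timp1 (SE 0.45, adjusted p 0.000583) and 2.67 for Mmp13 (SE 0.74, adjusted p 0.0312). Each of the 4 was higher in both libraries with a Fat3+ sum, without overlap with Lepr+ cells. Adamts1 was lower by a log2 of -2.37 (SE 0.50, adjusted p 0.00597), also in both libraries. The median over the 9 genes was 1.18, against -0.04 over all genes. Mmp14 (0.93), Timp3 (1.18), Adamts5 (0.48) and Timp2 (0.45) were not called. The Mmp13 call ended without replicate 2, at 1.66, and also with no upper limit on genes, with sums of at least 10 cells, with DESeq2 and with no replicate block. The Adamts1 call ended without replicate 3, at -2.62. Mmp14 and Timp3 were called higher without replicate 2 (1.46 and 1.89) and with stricter thresholds (1.08 and 1.54). Mmp9 moved to 6.29 without replicate 3 and to 5.82 with stricter thresholds. Where every cell meeting a rule was kept, the cells that met several rules included, Timp1 alone kept its call. Mmp2 then stood at 3.57, Mmp9 at 3.65, Mmp13 at 2.30, Adamts1 at -2.11, Timp3 at -0.25 and Adamts5 at -0.99.

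In Stab2+ ECs against Lepr+ cells, 3 of 9 genes were called higher, where 15.8% of all genes were, and 5 lower, where 16.3% were. Adamts5 was higher by a log2 of 4.12 (SE 0.40, edgeR adjusted p 1.29e-06) and Timp3 by 3.91 (SE 0.50, adjusted p 2.06e-05), each in 3 of 3 libraries without overlap. With every cell meeting a rule they stood at 2.63 and 2.23, both still called. Adamts1 was higher by 1.11 (SE 0.37, adjusted p 0.0338), with overlap between the classes, and this call ended without replicate 1 (1.10) or replicate 3 (0.75) and under DESeq2, DESeq2 size factors, sums of at least 10 cells and no replicate block, and with every cell meeting a rule. Mmp13 was lower by -6.31 (SE 0.73, adjusted p 7.87e-06), Mmp2 by -3.17 (SE 0.56, adjusted p 0.000399), Timp1 by -2.30 and Timp2 by -1.74, all 4 without overlap. Without replicate 3 the Mmp2 difference was -5.01 and that of Mmp13 -7.42. Mmp9, lower by -3.22 and by -1.61 with stricter thresholds, rested on replicate 3, where 3 Lepr+ cells held most Mmp9 UMIs: without it the change was 0.10, and the Mmp9 call also ended with DESeq2 and with every cell meeting a rule. Mmp14 did not pass (-0.11), and turned to 0.03 without replicate 2 and where every cell meeting a rule was kept. The median over the 9 genes was -1.74, against -0.01 over all genes. DESeq2 size factors moved the median of all genes by -0.12.

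Against the same Lepr+ cells, Cdh5+ ECs were higher in 1 of 9 genes, where 15.5% of all genes were called higher, and lower in 6, where 15.4% were called lower. Timp3 was higher by a log2 of 3.73 (SE 0.50, edgeR adjusted p 4.3e-05) in 3 of 3 libraries. Mmp13 was lower by -5.39 (SE 0.73, adjusted p 4.65e-05), Mmp14 by -2.04 (SE 0.39, adjusted p 0.00104), Timp1 by -1.66, Timp2 by -1.55 and Adamts5 by -1.03, each in 3 of 3 libraries and without overlap. Mmp9 was at -2.56, with overlap between the classes, but at 0.41 without replicate 3, which holds these 3 Lepr+ cells, and at 1.69 where every cell meeting a rule was kept. The Mmp9 call ended as well with stricter thresholds, a mitochondrial share under 5%, DESeq2 and no replicate block. The call for Timp1 ended without replicate 1 (-1.39), and that for Adamts5 without replicate 1 (-0.93) or 2 (-0.72) and under 5 other settings: no upper limit on genes, a mitochondrial share under 20%, doublets left out, no filter on low counts and no replicate block. Without replicate 3, Mmp13 was at -6.49, Timp1 at -2.76 and Mmp2, not called otherwise (-1.06), was called at -1.20. Adamts1 (0.54) was called without replicate 2 (1.21) and with stricter thresholds (0.87). With stricter thresholds Timp1 stood at -2.97 and Adamts5 at -1.80. With every cell meeting a rule, every call of this comparison but that for Adamts5 (-2.47) ended. Mmp13 then stood at -2.17, Mmp14 at -1.57, Timp1 at -1.18, Timp2 at -0.94 and Timp3 at 1.82. Counts of all genes called under that setting are given under how the results depend on the processing. The median was -1.55 over the 9 genes and 0.00 over all genes.

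Between the EC classes, Stab2+ ECs were higher in 2 of 9 genes, where 7.59% of all genes were called higher, and lower in 1, where 7.63% were called lower. Adamts5 was higher by a log2 of 5.15 (SE 0.42, edgeR adjusted p 2.38e-06) and Mmp14 by 1.93 (SE 0.39, adjusted p 0.00343), each in 3 of 3 libraries without overlap. The Mmp14 call ended with every cell meeting a rule (1.60). Mmp2 was lower by -2.11 (SE 0.63, edgeR adjusted p 0.0355), with both classes below the Mmp2 level of free RNA in each library. Its call ended without replicate 1 (-1.86) or 2 (-1.59), with stricter thresholds (-1.97) and with no replicate block (-2.06), and the change was -3.81 without replicate 3 and -3.38 with every cell meeting a rule. Timp3, high in both EC classes, had a change of 0.18 (SE 0.43) that did not pass. The median over the 9 genes was -0.20, against 0.00 over all genes.

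Fibroblast-rule and Col9+ cells had too few cells for the limit of 20 in most libraries and were compared with Lepr+ cells on sums of at least 10 cells, over 13300 genes. Fibroblast-rule cells were higher in 5 of 9 genes, where 9.64% of all genes were called higher, led by Mmp2 (log2 5.19, SE 0.54, edgeR adjusted p 2.21e-06) with Timp3 (3.23), Timp1 (2.49), Timp2 (2.39) and Adamts5 (1.53). In Timp1 they were above Lepr+ cells in replicates 1 and 3 but below them in replicate 2, at 21.2 CPM from 2 UMIs against 34.0 CPM. Fibroblast-rule cells were lower in 1, Mmp13 (-5.40), where 11.7% were called lower. Col9+ cells, with 2 libraries, were higher in 3, where 15.6% were called higher, namely Timp1 (3.92, SE 0.62, adjusted p 0.000149), Timp3 (2.88) and Mmp2 (1.64). They were lower in Mmp13 (-3.55) and Mmp9 (-3.21), 2 of 9, where 16.2% were called lower. The Mmp9 call uses the same Lepr+ cells, of which 3 in replicate 3 held 265 of 326 Mmp9 UMIs. In replicate 1, Lepr+ cells had 1.21 CPM of Mmp9, and 0 UMIs in Col9+ cells allow up to 7.20 CPM. The medians over the 9 genes were 1.53 and -0.75, against -0.21 and -0.10 over all genes. These comparisons were not repeated under the other settings.

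Just inside the Fat3 rule, 39 cells with 2 Fat3 UMIs had 2046 CPM of Mmp13 and 82.0 CPM of Mmp2. Just outside it, 69 cells with 1 UMI had 1208 and 89.3 CPM. The Lepr rule ran through a group rich in Mmp13: 115 cells with 2 Lepr UMIs had 2912 CPM and 160 cells with 1 had 3142 CPM, with Mmp9 at 144 and 1066 CPM. The Mmp9 level of Lepr+ cells, and with it the difference from Fat3+ cells, thus depends on where this rule was cut. Cells with 5 Stab2 UMIs (33) had 734 CPM of Adamts5 and those with 4 (21) had 653.5. At the Cdh5 rule, 95 cells with 1 UMI had 188 CPM of Timp3 and 2321 cells with none had 19.0. The 12 cells within 100 UMIs above the S100a8 and S100a9 threshold had 202 CPM of Mmp9 and the 14 cells within 100 below it had 255. At the fibroblast rule and the Col9 rule there were 1 cell inside and 3 outside, and 1 inside and 2 outside.

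Since neutrophil RNA could be caught in the droplet of another cell, it was asked whether Mmp9 in cells meeting the Fat3 rule came with neutrophil genes. All 9, 47 and 710 cells meeting that rule were taken, those that met a further rule included.

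An Mmp9 UMI was found in 1, 3 and 49 of these cells. That is 53 of 766 or 6.92% (Wilson interval 5.33 to 8.94), and 6.90% in replicate 3 at a median depth of 10109.5 UMIs. For comparison, the share was 0.732% in Stab2+ ECs of replicate 3 (0.371 to 1.44, median depth 8134) and 0.691% in Cdh5+ ECs (0.235 to 2.01, median depth 3930.5), and thinned shares were 2.85, 0.209 and 0.203%. Fat3 rule cells were thus above ECs at equal depth in replicate 3. Their Mmp9 UMIs numbered 2, 24 and 1416. In replicate 3 they were concentrated: 7 cells with at least 10 held 1333 of them (94.1%), the highest count was 527, and 27 cells had exactly 1. In 44 Fat3+ cells of replicate 2, 1 cell held 17 of 24 UMIs. The level of Mmp9 in Fat3+ cells therefore stands for few cells, and the edgeR call above does not show a change in most of them.

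Of the 49 cells with Mmp9 in replicate 3, 47 had no UMI of S100a8 or S100a9. In these 49 cells, 1112 of the 1113 S100a8 and S100a9 UMIs lay in 1 cell, which met the S100a8/a9 rule too, with 312 Retnlg UMIs and 6 of Mmp9. The other 48 cells held 1410 Mmp9 UMIs, 1 UMI of S100a8 or S100a9 and none of the 12 neutrophil genes Ngp, Camp, Ltf, Lcn2, Retnlg, Mmp8, Csf3r, Cd177, Cebpe, Elane, Mpo and Fcnb. Of the 661 cells without Mmp9, 627 had no S100a8 or S100a9 UMI and 641 none of the 12 genes, so most Fat3 rule cells of replicate 3 lacked neutrophil genes with or without Mmp9. In replicate 2, where S100a8/a9-high cells were most abundant, each of the 3 cells with Mmp9 had 1 such UMI, and the 44 cells without Mmp9 had a mean of 2.41. Those 3 cells also held 3 UMIs over 2 of the 12 genes, at 61.9 CPM against 51.2 CPM in the 44, so Mmp9 could not be set apart from neutrophil RNA there by absence. The absence of neutrophil genes thus rests on replicate 3. Over all libraries 48 of 53 cells with Mmp9 (90.6%, interval 79.8 to 95.9) had no such UMI. Among cells without Mmp9 it was 7 of 8, 10 of 44 and 627 of 661 in replicates 1, 2 and 3, so the share follows the library. Without replicate 3, where most of these cells lie, it was 25.0% of 4 cells, and without replicate 2 it was 96.0%.

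The ratio of Mmp9 to S100a8 and S100a9 UMIs was also counted. S100a8/a9-high cells had 2.37, 1.62 and 4.81 Mmp9 UMIs per 1000, but these cells were selected for S100a8 and S100a9, so their ratio is no reference for other cells. Fat3 rule cells had 220 and 1227 per 1000 in replicates 2 and 3 (2 Mmp9 UMIs to 1 in replicate 1), and 33570 in replicate 3 without the cell that met both rules. Free RNA of replicates 1 and 2 had 5.78 and 1.78 Mmp9 UMIs per 1000. That of replicate 3 had 208, and the source of its Mmp9 was not tested.

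**Figure D3:**
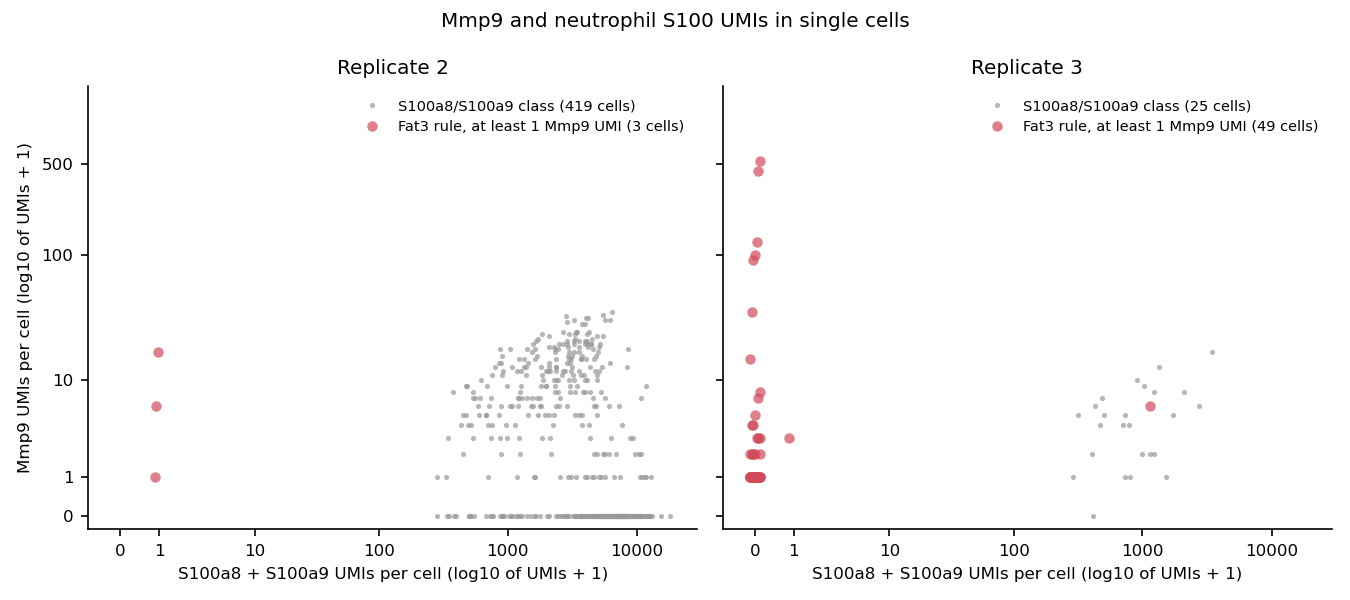
Mmp9 against S100a8 plus S100a9 UMIs in single cells of replicates 2 and 3 (both axes log10 of UMIs + 1), with cells of the Fat3 rule that had at least 1 Mmp9 UMI in red and S100a8/a9-high cells in grey, points spread slightly sideways. In replicate 3, 47 of 49 red points lie at 0 on the x axis, up to 527 Mmp9 UMIs, and 1 lies among the grey points.

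Osteoclast genes were looked at in the same way. Across the 48 cells, 3 of 8 osteoclast genes had UMIs, 113 in all or 194 CPM, of which 81 were Ctsk and 3 were Acp5, and the 661 cells without Mmp9 had 170 CPM. In replicate 1 the 1 cell with Mmp9 had 898.5 CPM of these genes against 209.5 CPM in the 8 without, and in replicate 2 the 3 cells had 124 CPM against 1168 CPM in the 44. In replicate 2, 555 of the 639 UMIs in the 44 cells were Car2, while Ctsk was at 103 CPM with and 111.5 CPM without Mmp9. The macrophage list of 8 genes gave 5 UMIs in the 48 cells. Outside the S100a8/a9-high class, replicate 3 held 16 cells with at least 10 Mmp9 UMIs, 7 of the Fat3 rule, 3 Lepr+ cells and 6 that met no rule. In all 16, Mmp13 had UMIs (5 to 942 per cell), the 12 neutrophil genes, Ptprc and Acp5 had none, and Scrublet called none a doublet. Of the 661 Fat3 rule cells of replicate 3 without Mmp9, Ptprc had UMIs in 0, Acp5 in 23, Mmp13 in 339 and Pdgfrb in 317. The absence of Ptprc and Acp5 thus does not set the 16 cells apart. Acp5 is 1 of the 8 osteoclast genes, and another, Ctsk, had UMIs in most of the 16 cells, up to 5 per cell. The osteoclast list reached 18 UMIs in the cell with the most Mmp9. No macrophage gene had UMIs in 7 of the 7 Fat3 rule cells, 2 of the 3 Lepr+ cells and 5 of the 6 others. Pdgfrb was present in 15 of 16. Replicate 2 held 2 such cells with 17 Mmp9 UMIs each, and these differed. The Fat3 rule cell had 112 Mmp13 UMIs and 1 UMI over the 12 neutrophil genes, while the other, which met no rule, had 91 UMIs of S100a8 and S100a9, 106 over 7 neutrophil genes, 3 of Ptprc and none of Mmp13. In the cell with the highest count, 527 of 24393 UMIs were Mmp9 and 942 were Mmp13.

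The genes most raised in the 7 Fat3 rule cells were looked for after their values were seen and are given without a test, in order of their ratio to the 661 cells without Mmp9 once 20 CPM were added to both. Values are means of the CPM of single cells, over genes with a UMI in at least 5 of the 7. They were Fabp5 (5 of 7 cells, 965 CPM against 13.0 CPM), Cd55 (6 of 7, 910.0 against 18.5), Clstn2 (6 of 7, 526 against 3.85), Ntn1 (5 of 7, 350 against 14.2), Sox5 (5 of 7, 758 against 52.1) and Fancc (7 of 7, 1175 against 92.5). Next came Ptch1 (7 of 7, 1098 against 85.5), Otos (5 of 7, 196 against 0.435), Egfr (7 of 7, 1749 against 149) and Gm15675 (5 of 7, 186 against 2.58). The 3 Lepr+ cells and the 6 cells outside the rules were not used in that search. Egfr and Ptch1 had UMIs in all 9 of them and Cd55 in 3 and 5. Fancc was found in 2 and 5, Ntn1 and Sox5 in 2 and 4, Fabp5 and Gm15675 in 2 and 3, Clstn2 in 1 and 3, and Otos in 0 and 2. The Fat3 rule cell of replicate 2 with 17 Mmp9 UMIs had Ptch1 and no Egfr.

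Fat3+ cells were then split into 4 equal groups by the share of Bglap and Bglap2, the osteocalcin genes of mature osteoblasts, a split chosen after seeing the data. From the lowest to the highest group, Mmp13 went through 4854, 3154, 1910.0 and 180.5 CPM in replicate 3. In replicate 2, with 11 cells a group, it was 2004, 6957, 2521 and 0 CPM. Of the 710 cells of replicate 3 that met the Fat3 rule, 187 also had at least 2 Lepr UMIs. Stromal genes of the Lepr+ class moved with the split, with Cxcl12 at 2692 and 149 CPM, Lepr at 318 and 23.3 CPM and Pdgfrb at 294 and 27.2 CPM in the lowest and highest groups of replicate 3. In replicate 2 they were at 254 and 0, 165 and 33.7, and 165 and 6.74 CPM, so the osteocalcin-poor groups held more RNA of the Lepr+ class, whose part in these levels was not tested. In both libraries Mmp13 was lowest in the group richest in osteocalcin RNA, which had the greatest median depth, 13366 UMIs in replicate 3 and 14042 in replicate 2. Mmp9, which few cells carry, was also higher in the osteocalcin-poor groups, at 552, 322, 4.41 and 17.1 CPM in replicate 3, and both replicate 2 groups richest in osteocalcin had 0. Mmp2 ran the other way, at 168, 236, 488 and 496 CPM in replicate 3 and 95.1, 151, 355 and 391 CPM in replicate 2. The thinned share of Mmp13 fell from 66.2 to 12.6% and that of Mmp2 stood at 21.6 and 55.9% at the ends in replicate 3.

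**Figure D4:**
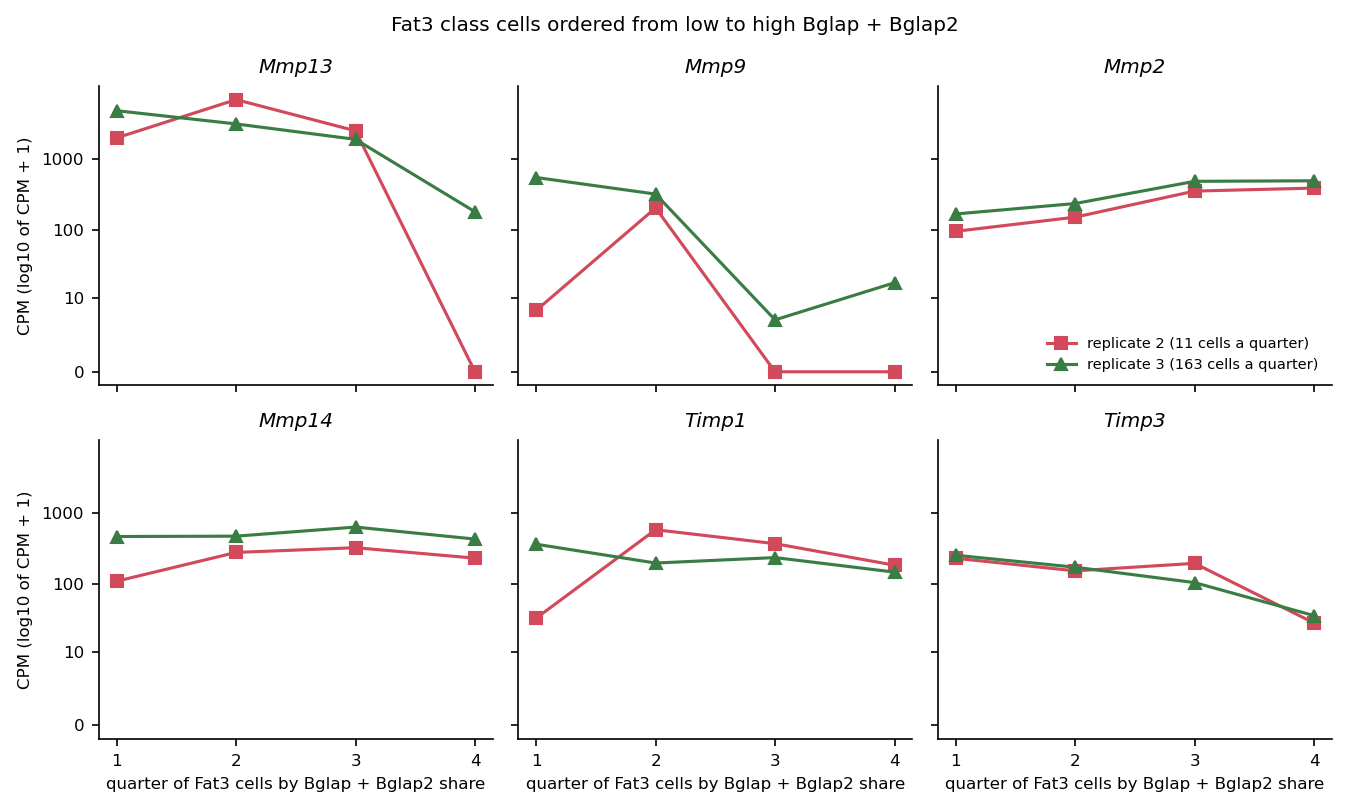
Levels of 6 genes (log10 of CPM + 1) in Fat3+ cells of replicates 2 and 3, put into 4 equal groups from the lowest to the highest share of Bglap and Bglap2 UMIs. In replicate 3, Mmp13 goes from 4854 to 180.5 CPM and Mmp2 from 168 to 496 CPM.

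Timp3 was also lowest in the osteocalcin-rich group, at 34.5 CPM against 252 CPM in the osteocalcin-poor group of replicate 3 and 27.0 against 228 CPM in replicate 2. Adamts5 was likewise lowest there, at 67.9 and 40.5 CPM. Mmp14 was at 464, 470, 631 and 427 CPM in replicate 3 and at 108, 276, 322 and 229 CPM in replicate 2, highest in both in the group next to the richest. Across cells, where the points share depth and library, the Pearson correlation of Mmp13 with Spp1 was 0.743 over 44 cells of replicate 2 and 0.528 over 652 cells of replicate 3. With Bglap it was -0.506 and -0.451. Mmp2 and Col1a1 had 0.71 and 0.49.

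Wider lists of the same system were counted in each comparison, and the shares of all genes called higher and lower are given in brackets as "all genes". Of 18 other MMPs, 17 were in the files and 9 were tested. In Fat3+ against Lepr+ cells 1 was called higher, the membrane-type Mmp16 (all genes 5.71 and 5.42%; 881 and 646 CPM in replicates 2 and 3 of Fat3+ cells, 15.6, 10.7 and 21.0 CPM in Lepr+ cells, log2 5.73), and 0 lower. Against Lepr+ cells, 2 were higher and 4 lower in Stab2+ ECs (all genes 15.8 and 16.3%) and also in Cdh5+ ECs (all genes 15.5 and 15.4%), with Mmp23 at -6.77 and -5.18, Mmp25, which had 1 UMI in Lepr+ cells, at 5.88 and 4.99 and Mmp15 at 4.51 and 6.08. Between the EC classes 0 were higher and 3 lower in Stab2+ ECs (all genes 7.59 and 7.63%), with Mmp28 at -1.69. Mmp3 was called higher in fibroblast-rule cells and in Col9+ cells (5.94), with 1 higher and 2 lower in the former (all genes 9.64 and 11.7%) and 3 higher and 4 lower in the latter (all genes 15.6 and 16.2%). Mmp8, a neutrophil collagenase, was at 1012, 558 and 1375 CPM in S100a8/a9-high cells and at 5.23 and 0.402 CPM in Fat3+ cells of replicates 2 and 3.

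Of 17 other ADAMTS genes, 14 were tested. In Fat3+ cells 3 were higher and 0 lower than in Lepr+ cells (all genes 5.71 and 5.42%), with Adamts18 at a log2 of 7.40, Adamts17 at 3.96 and Adamts6 at 3.12. Adamts18 was at 36.6 and 129 CPM in Fat3+ cells of replicates 2 and 3 and at 0, 0 and 1.09 CPM in Lepr+ cells. In Stab2+ ECs 4 were higher and 5 lower (all genes 15.8 and 16.3%), and in Cdh5+ ECs 3 and 6 (all genes 15.5 and 15.4%), with Adamts2, a procollagen-processing enzyme, at -8.13 and -6.77. Stab2+ ECs exceeded Cdh5+ ECs in 3, with Adamts17 at 4.29 and Adamts12 at 2.37, and were lower in 0 (all genes 7.59 and 7.63%). With 13 tested, 2 were higher and 3 lower in fibroblast-rule cells (all genes 9.64 and 11.7%) and 3 and 5 in Col9+ cells (all genes 15.6 and 16.2%).

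All 7 ADAM genes were tested. Adam10 was higher (1.36) and Adam9 lower (-1.20) in Fat3+ cells (all genes 5.71 and 5.42%). Against Lepr+ cells, 3 were higher and 0 lower in Stab2+ ECs (all genes 15.8 and 16.3%) and 2 and 2 in Cdh5+ ECs (all genes 15.5 and 15.4%), with Adam15 at 1.98 and 3.26. Adam12 was higher by 3.17 in Stab2+ than in Cdh5+ ECs, with 2 higher and 1 lower in all (all genes 7.59 and 7.63%). In fibroblast-rule cells 0 were higher and 1 was lower, Adam12 (-2.84; all genes 9.64 and 11.7%), and in Col9+ cells 0 and 4 (all genes 15.6 and 16.2%).

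Of 10 other inhibitors and clearance genes, 9 were tested. In Fat3+ cells Spock2 (4.23) was higher and Timp4 (-3.53) lower (all genes 5.71 and 5.42%). Stab2+ ECs were higher in 2 and lower in 6 (all genes 15.8 and 16.3%), with the clearance receptor gene Lrp1 at -7.04 and the general protease inhibitor gene A2m at -6.12. Cdh5+ ECs were higher in 3 and lower in 5 (all genes 15.5 and 15.4%), with Cav1 at 9.55. Timp4 was at 434 and 1029 CPM in Cdh5+ ECs of replicates 2 and 3, with 138 UMIs in the 70 cells of replicate 1, and at 0.530, 0.409 and 8.31 CPM in Stab2+ ECs, a log2 of -7.28, and Stab2+ ECs were lower than Cdh5+ ECs in 3 of these genes and higher in 0 (all genes 7.59 and 7.63%). Of 8 tested, 4 were higher and 2 lower in both fibroblast-rule (all genes 9.64 and 11.7%) and Col9+ cells (all genes 15.6 and 16.2%).

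Among 9 activators and plasminogen genes, 8 were tested, and Fat3+ cells were higher in 1, Plat (4.91; 10.5 and 14.3 CPM in replicates 2 and 3 against 0.847, 0 and 0.546 CPM in Lepr+ cells), and lower in 0 (all genes 5.71 and 5.42%). In Stab2+ ECs 3 were higher and 3 lower (all genes 15.8 and 16.3%), with Serpine2 at -7.80 followed by Plau and by Plaur at 5.84, and in Cdh5+ ECs 4 were higher and 1 lower (all genes 15.5 and 15.4%), led by Plaur and then Plat at 5.96. Plat was lower by -2.91 in Stab2+ than in Cdh5+ ECs, where 0 were higher and 3 lower (all genes 7.59 and 7.63%). Fibroblast-rule (all genes 9.64 and 11.7%) and Col9+ cells (all genes 15.6 and 16.2%) each had 4 higher and 1 lower, with Plat at 7.46 in the former and Plaur at 6.87 in the latter.

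The 7 substrate genes were all tested. In Fat3+ cells 4 were higher, led by Col2a1 (7.36), Col1a1 (6.69) and Acan (3.93), and 2 lower (all genes 5.71 and 5.42%). Acan, the aggrecan gene, was at 41.1 CPM in replicate 3 and 1.74 CPM in replicate 2 of Fat3+ cells and at 2540.0 and 4380.0 CPM in Col9+ cells. In Stab2+ ECs, the class richest in Adamts5, 0 substrates were higher and 3 lower than in Lepr+ cells (all genes 15.8 and 16.3%), among them Vcan (-4.71), and 0 were higher and 4 lower than in Cdh5+ ECs (all genes 7.59 and 7.63%), among them Fn1 (-4.86). Cdh5+ ECs had 4 higher and 2 lower (all genes 15.5 and 15.4%), fibroblast-rule cells 4 and 0 (all genes 9.64 and 11.7%), and Col9+ cells 3 and 3 (all genes 15.6 and 16.2%). Whether the enzymes meet these substrates was not measured.

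Genes with the most similar pattern were found by the Pearson correlation of log2(CPM+1) over the 15 sums, without a test. For Mmp2 they were Col5a2 (0.951), Serpinf1 (0.918) and Lum (0.915), and for Mmp9 Chst13 (0.937), Fstl4 (0.910) and Cyfip2 (0.885). Mmp13 was followed by Dtna (0.972), Vdr (0.962) and Phex (0.958), and Mmp14 by Fkbp7 (0.977) and Lix1l (0.944). The pattern of Adamts1 was closest to Hes1 (0.987), Hoxa5 (0.965) and Lipt2 (0.963), that of Adamts5 to Zfp521 (0.968), Chst2 (0.959) and C1qtnf1 (0.954). For the inhibitors they were Kdelr3 (0.951), Zfp9 (0.949) and Tmem263 (0.945) for Timp1, Nipal2 (0.897), Pik3r2 (0.897) and Gm15417 (0.849) for Timp2, and Asap2 (0.970), Hspg2 (0.967) and Btbd3 (0.965) for Timp3. The sums share libraries and classes, so these values describe the order of classes and not a link between genes.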

How the data were processed

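The 3 libraries hold raw UMI counts per gene and barcode, deposited by the authors unfiltered and not normalized after Cell Ranger 7.1.0 on mm10 with introns and the reporter construct included. The 9 genes and all lists were chosen with earlier results of these data known. Classes were made by the stated rules in Python 3.11.15 (numpy 2.4.6, scipy 1.17.1, pandas 2.3.3), and Scrublet in scanpy 1.11.5 (expected rate 6%) called doublets. Shares carry Wilson 95% intervals, and thinned shares average over all draws of 2000 UMIs. A count of 0 was taken to allow up to 3.

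Sums were tested in R 4.3.3 with edgeR 4.0.16 (TMM, filterByExpr, adjusted p threshold 0.05) or DESeq2 1.42.0 and checked on simulated data. The block for library was kept because deviations of Lepr+, Stab2+ and Cdh5+ sums from their class means correlated within libraries at 0.473 to 0.575. Named were the 9 genes, up to 3 per list and comparison from among the 3 called genes with the largest changes, and 3 similar genes each, of which 1 is not reported here; other names were chosen after their values were seen. Mmp1a was not in the files. Positions are from GENCODE on GRCm38, and figures were drawn with matplotlib 3.10.9.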

Additional observations from a re-analysis of the deposited data

Results flagged for a closer look

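In cells of replicate 3 that met none of the class rules, and so stood outside every comparison, Mmp9 was at 197.2 CPM, with a UMI in 31 of 556 cells. This is a signal above the limit that a count of 0 allows. Of its 1002 UMIs, 6 cells with at least 10 each held 936. Each of these 6 cells had 1 Lepr UMI and so lay just outside the Lepr rule. Over all libraries, the 160 cells just outside that rule held 951 Mmp9 UMIs, against 326 in the Lepr+ cells of replicate 3. In replicates 1 and 2, cells that met none of the rules had 0 and 3.38 CPM of Mmp9.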

How the results depend on the processing

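Of 504 values of the 9 genes over 4 comparisons and 14 alternative settings, 446 kept their direction and their side of the threshold, 41 lost a call, 7 gained one and 10 changed direction. With every cell meeting a rule, members called higher and lower in Fat3+ against Lepr+ cells were 1 and 0 (all genes 390 and 315). In Cdh5+ ECs against Lepr+ cells they were 0 and 1 (1357 and 1229). Between the EC classes, Mmp14 lost its call under this setting. The changes that turned with every cell meeting a rule were Timp3 -0.25 and Adamts5 -0.99 in Fat3+ cells, Mmp14 0.029 in Stab2+ ECs and Mmp9 1.69 in Cdh5+ ECs. Stricter thresholds gave 1610 higher and 1508 lower genes in Fat3+ cells and 2029 genes higher in Stab2+ than Cdh5+ ECs, where Timp1 turned to 0.79. Under these thresholds Adamts1 gained a call in Cdh5+ ECs against Lepr+ cells, and Mmp2 lost its call between the EC classes. Without the replicate block, Stab2+ against Cdh5+ ECs had 0 members and 758 genes lower.

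Leaving out each replicate in turn gave 0 to 1 members lower in Fat3+ cells, with 508 to 1123 genes higher and 517 to 995 lower. Cdh5+ ECs had 1 to 2 members higher, with 1462 to 2694 genes higher and 1433 to 2494 lower. Stab2+ against Cdh5+ ECs had 0 to 1 members lower, with 604 to 1171 genes higher and 640 to 1331 lower. Against Lepr+ cells, Mmp9 ran from -3.83 to 0.10 in Stab2+ and from -2.94 to 0.41 in Cdh5+ ECs, turning without replicate 3, and Mmp14 from -0.18 to 0.03 in Stab2+ ECs, turning without replicate 2. Between EC classes, Timp1 ran from -1.08 to 0.58, turning without replicate 3, and Timp2 from -0.36 to 0.030, turning without replicate 1. The share of Fat3 rule cells with Mmp9 and no S100a8 or S100a9 UMI was 25.0 to 96.0%. Mmp9 UMIs per S100a8 and S100a9 UMI were 1.14, 0.236 to 1.23 by replicate left out, 0.412 with a Fat3 threshold of 1 and 9.45 without the cell that met both rules. The causes were not tested.

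Without replicate 2 or 3, Fat3+ cells had 1 sum, assumed to vary like the others. Fat3+ cells of replicate 1 were too few for a sum. Thinning to 1000 and 4000 UMIs moved the share of Fat3+ cells with Mmp13 from 41.2 to 36.5 and 45.0%.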
